A study of Oryza sativa with 8 samples.

Results

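Rice seedlings overexpressing OsTMF were set against wild-type seedlings of the same cultivar, Zhonghua 11 (ZH11), before any cold was applied. The levels compared were those of 4 of the 8 arrays of the study, chosen by their titles: the 2 OsTMF overexpression arrays and the 2 ZH11 arrays labelled normal. The overexpression arrays, called OE here, came from independent transgenic lines, OE-24 and OE-29, with 1 array each. The 2 ZH11 arrays were independent biological replicates without the construct. All 4 held total RNA of shoots and leaves of soil-grown seedlings at the 4-leaf stage. The other 4 arrays held the same lines and ZH11 after 24 h in a chamber at 4 °C with 14 h of light and 10 h of darkness, again OE-24 and OE-29 and 2 ZH11 replicates. These cold arrays entered the filter on dim probe sets and the estimate of the spread. The promoter of the construct is not given in the sources used here, and each line was seen in 1 array before cold, so the spread within a line is unknown. No annotated gene matched OsTMF (0 matches), so the level of the transgene is not reported.

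In other eukaryotes, TMF is a coiled-coil protein found at the Golgi apparatus, the compartment that sorts secreted proteins and makes wall polysaccharides. Defence in rice leaves draws on chitinases that cut the walls of fungi and on diterpenoid phytoalexins. The hormones ethylene, jasmonate and auxin set the balance of growth and defence. Comparing the genotypes before chilling shows how they differ when no stress has been given.

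Each deposited value is the signal of a probe set, an intensity. They were taken to log2 after adding 16, so a change is a difference of log2(signal + 16) and is understated for dim probe sets. Tests covered the 34316 probe sets, for 15841 genes, whose 8-array mean exceeded the 40th percentile. It was called when limma gave an adjusted p under 0.05, and ± stands for the standard error of a log2 change. Array medians of all 8 arrays ran from 27.2 to 28.2, and the number of arrays limits the precision. Between the 2 ZH11 arrays the median absolute log2 difference was 0.089. It was 0.106 and 0.096 between OE-24 and the ZH11 arrays, 0.127 and 0.133 between OE-29 and the ZH11 arrays, and 0.141 between the OE lines.

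Most leaf genes were bright, and their summed signals overlapped between the genotypes. The Rubisco small subunit gene RBCS had 14687.6 and 14886.1 in OE, against 15400.2 and 14680.4 in ZH11. A pair of the markers was dim: CPDK2 had 23.4 and 25.8 in OE and 21.5 and 27.5 in ZH11, and RBCS1 had 5.0 and 5.1 in OE and 4.6 and 5.2 in ZH11. The 8 leaf and shoot markers summed to 46800.1 and 45927.6 in OE and to 47475.3 and 46237.2 in ZH11. Root, meristem and flower markers had sums of 115.7 and 137.5, 52.7 and 49.5, and 370.0 and 363.7 in OE, against 106.8 and 116.5, 57.0 and 45.9, and 379.7 and 369.0 in ZH11. Seed markers summed to 1831.8 and 1962.2 in OE and to 2009.5 and 1835.5 in ZH11, mostly through GLB1 (1365.4 and 1434.8, against 1467.6 and 1327.7). Senescence and wounding markers summed to 1910.9 in OE-24 and 2531.1 in OE-29, against 2689.9 and 2530.7 in ZH11. None of the tested markers of leaf, seed, root, flower, meristem or senescence was called on its brightest probe set. In whole shoots and leaves, fewer cells of a type and less RNA per cell cannot be told apart.

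Before cold, 408 probe sets were called between OE and ZH11, 1.19% of those tested. Signals were higher in OE for 265 (0.772%) and lower for 143 (0.417%). At 2-fold or more, 112 were called (0.326%), 90 higher and 22 lower. Over genes, 238 were called (1.5%), with 151 higher (0.953%) and 87 lower (0.549%), and 35 of these carry a gene name beyond their locus number. The count of 408 changed with the arrays in the fit. With the 4 normal arrays alone it was 226. Leaving out OE-24 normal gave 846 and leaving out OE-29 normal gave 198. With the first or the second ZH11 normal array left out it was 151 or 165, and with the first or the second ZH11 cold array left out, 241 or 242.

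**Figure D1:**
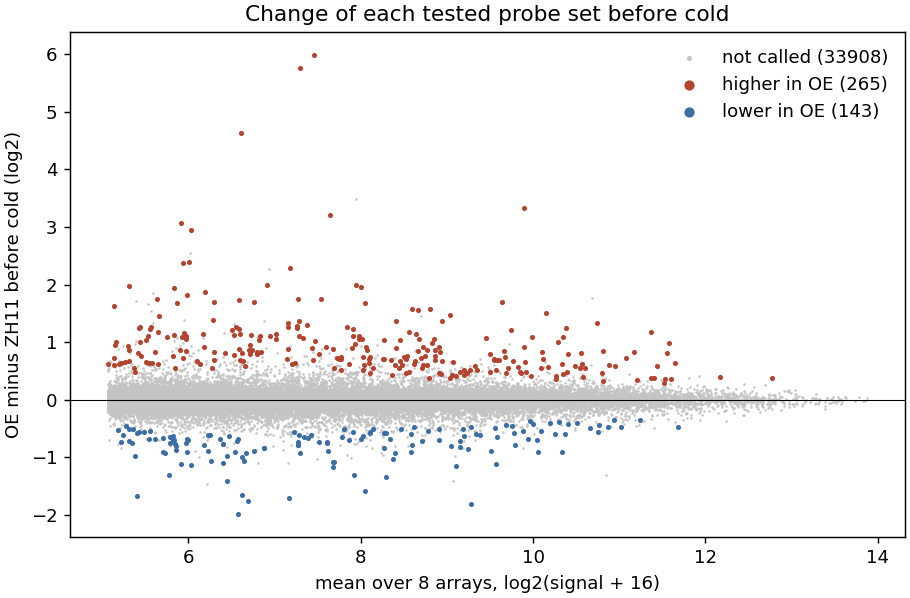
Change before cold (OE minus ZH11, log2, vertical axis) against the mean log2(signal + 16) over the 8 arrays (horizontal axis), with 1 point for each of 34316 tested probe sets. The 265 called higher reach 5.98, while the 143 called lower reach -1.98.

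The lines agreed in direction for every probe set called. In all 265 called higher, both lines lay above both ZH11 arrays, and in all 143 called lower, both lay below. A call favours arrays that do not overlap, so these counts are no separate support. The same holds wherever a called gene or probe set below is said to be without overlap or to separate the groups. Over all tested probe sets, both lines lay beyond both ZH11 arrays on one side for 11668 (34%), 6015 above (17.5%) and 5653 below (16.5%). The 22648 others overlapped.

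Taken singly, OE-29 stood further from ZH11 than OE-24 by number of calls. With each line as its own group, 201 probe sets were called for OE-24 (0.586%), 117 higher (0.341%) and 84 lower (0.245%). For OE-29 there were 843 (2.46%), 539 higher (1.57%) and 304 lower (0.886%). The line comparisons share the ZH11 arrays, and each rests on 1 array assumed to vary like the other groups. Called the same way in each line were 158 probe sets, 108 higher and 50 lower, and 0 were called in opposite directions. In limma's test of OE-24 against OE-29, 0 probe sets were called at an adjusted p under 0.05. At an unadjusted p under 0.05 there were 4920, 14.3% of those tested, and 106 of the 408, 26.0%. With 1 array a line, the absence of calls does not show that the lines were alike.

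Among the 408, OE-29 was more often the further line in the rises than in the falls. Of the 265 probe sets called higher, OE-29 was further from ZH11 in 209 and OE-24 in 56, with median changes of 0.71 in OE-24 and 0.89 in OE-29. The change was at least 2-fold in both lines for 59 of them and in exactly 1 line for 57. Of the 143 called lower, OE-24 was further in 71 and OE-29 in 72, with medians of -0.68 and -0.69. Alone against ZH11, OE-24 reached a call in 113 of the rises and 62 of the falls, and OE-29 in 245 and 96.

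**Figure D2:**
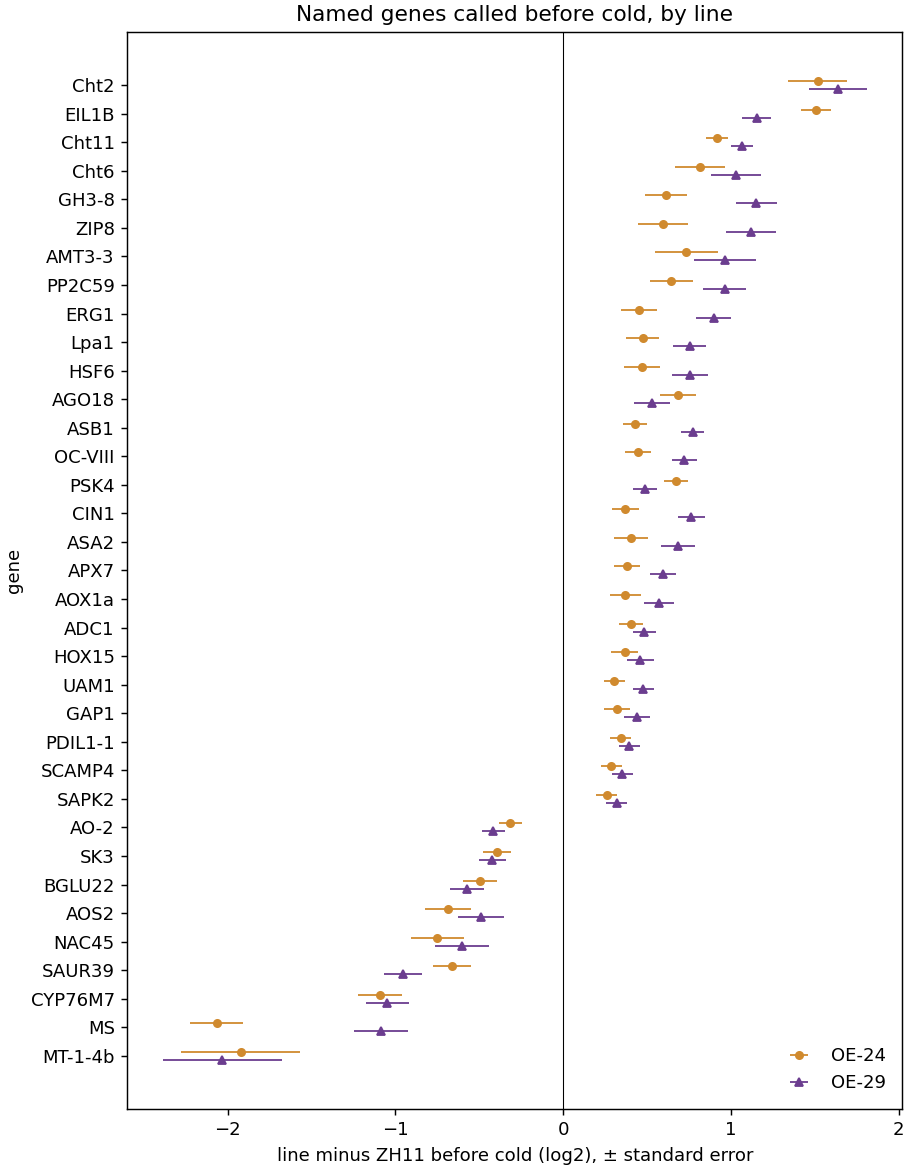
Change of each line against the mean of the ZH11 arrays before cold (log2, horizontal axis) for the 35 named genes called, with OE-24 as circles, OE-29 as triangles and bars for ± 1 standard error. Both lines lie on the same side of 0 for every gene. OE-24 lies further out than OE-29 for several, among them EIL1B (1.51 and 1.15) and MS (-2.07 and -1.09).

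The largest differences were in genes that have only a locus number. LOC4331398 had signals of 1059.0 in OE-24 and 1719.1 in OE-29, against 4.1 and 7.3 in ZH11. The change was 5.98 ± 0.23 (limma adjusted p = 2.07e-06), and its other probe set gave 5.75, with 830.3 and 1376.5 in OE against 4.7 and 3.6 in ZH11. Both probe sets were therefore bright in both lines and among the dimmest values of the array in ZH11, where signals started at 2.8. The size depends on the added constant, and over 19 alternatives it ran from 4.34 to 7.70.

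LOC4340325 had 598.2 and 558.9 in OE, against 9.2 and 6.8 in ZH11 (4.63 ± 0.14, limma adjusted p = 2.49e-07). Its signal in the OE lines was nearly the same. Its other probe set was not called, with 48.6 and 50.9 in OE, 54.6 and 50.5 in ZH11 and a change of -0.06. That probe set was the dimmer one in OE but the brighter one in ZH11. The low level in ZH11 and the rise therefore rest on the called probe set alone. Together LOC4331398 and LOC4340325 made up all 3 called probe sets that lay under the array median in both ZH11 arrays and above the upper quartile in both OE arrays. The reverse pattern was met by 0 called probe sets. LOC4340325 falls below the signal condition for naming and was chosen after its values were seen.

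LOC9268613 followed, with 241.8 and 316.5 in OE and 46.4 and 41.4 in ZH11 (2.29 ± 0.13, limma adjusted p = 2.3e-05). Its other probe set gave 3.07, with 142.6 and 184.8 in OE against 5.2 and 5.2 in ZH11, so both separated the genotypes. LOC4335515 (1.75), LOC4345562 (1.68) and LOC4352852 (1.57) were also higher without overlap between the groups. LOC4335515 lost its call in 1 of the 19 alternatives, without OE-29 normal (limma adjusted p = 0.0757). LOC4350063 (1.81) and LOC4350282 (1.76), below the signal condition, were chosen after their values were seen.

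Probe sets with no gene listed made up 143 of the 408 called, 35.0%, against 44.2% of all tested. Os.32889.1.S1_at had 761.0 and 1078.2 in OE and 67.3 and 85.4 in ZH11 (3.33 ± 0.15, limma adjusted p = 3.33e-06). Os.4620.1.S1_at had 693.9 and 517.2 in OE and 49.2 and 52.8 in ZH11 (3.20 ± 0.17, limma adjusted p = 1.69e-05). Both separated the groups without overlap.

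**Figure D3:**
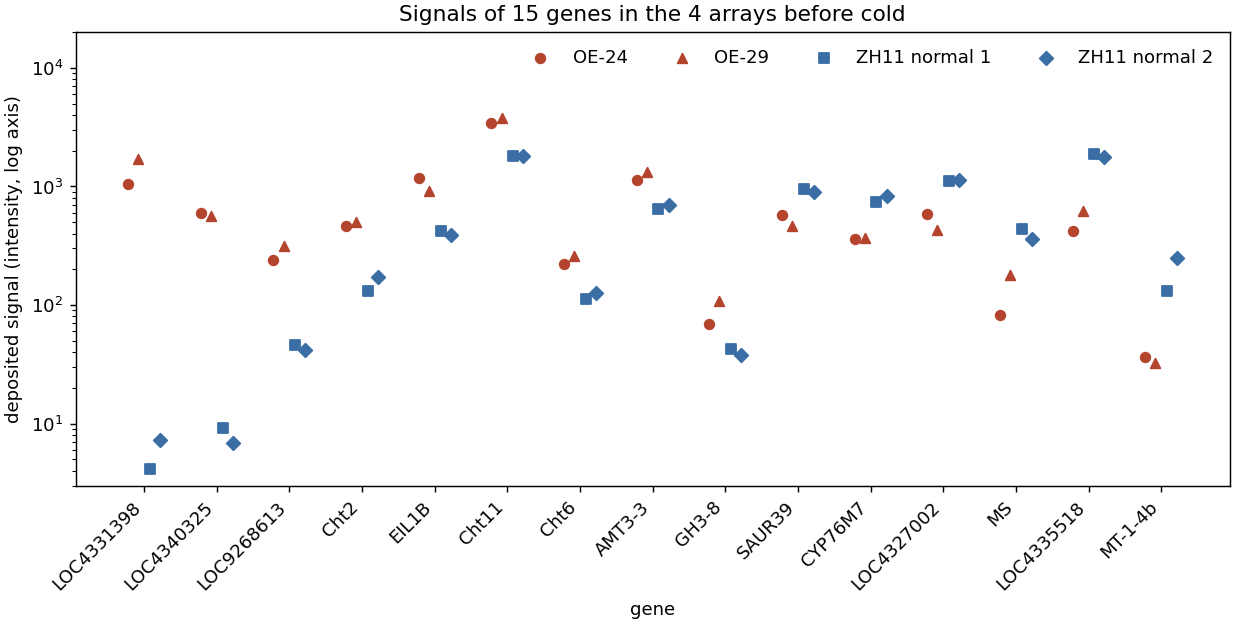
Deposited signals (intensity, log axis) of 15 genes in the 4 arrays before cold, with OE-24 and OE-29 in red to the left of the ZH11 replicates in blue. All 15 genes were called, and a call favours arrays that do not overlap. The OE and ZH11 arrays do not overlap for any of the genes, which is no separate support, and the gap is widest for LOC4331398.

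Chitinases hydrolyse chitin, a polymer of fungal walls. Of 14 tested chitinase and defence protein genes, 3 rose and 0 fell, and 11 did not pass, with a median change of 0.45 beside 0.01 over all genes tested. Over all genes tested, 0.953% were called higher and 0.549% lower, and these shares stand beside each list count below as well. The median was 0.47 after quantile normalization and 0.44 after median centring. Both lines lay above both ZH11 arrays for 7 of the 14 and below for 1, where over all genes these shares were 18.5% and 18.1%. Earlier results of these data were known when the list was made.

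Cht2 had 461.7 in OE-24 and 503.6 in OE-29, against 132.5 and 171.9 in ZH11 (1.58 ± 0.14, limma adjusted p = 0.000338). Its other probe set gave 1.36. Cht11 was far brighter, with 3435.4 and 3800.5 in OE and 1808.4 and 1812.7 in ZH11 (0.99 ± 0.07, limma adjusted p = 7.05e-05). Cht6 had 221.2 and 259.3 in OE and 112.2 and 126.0 in ZH11 (0.92 ± 0.13, limma adjusted p = 0.00747). All 3 genes separated the groups without overlap, and the lines lay close to each other. Cht6 lost its call without ZH11 normal replicate 1 and without OE-29 normal (limma adjusted p = 0.0778 and 0.0666).

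Other chitinases were not called. Cht3 had 108.9 and 132.6 in OE and 58.6 and 56.5 in ZH11 (0.89, adjusted p = 0.064 in limma), and Cht1 had 322.9 and 385.9 in OE and 214.1 and 232.9 in ZH11 (0.62, adjusted p = 0.136 in limma). For Cht4 the groups touched, with 87.9 and 32.5 in OE and 32.5 and 9.1 in ZH11. The defence protein gene PBZ1 was bright in every array, at 9147.7 and 8927.8 in OE and 7389.3 and 7643.2 in ZH11 (0.27, adjusted p = 0.105 in limma). NPR1, a regulator of salicylate responses, had 537.9 and 604.9 in OE and 440.8 and 492.2 in ZH11 (0.28, adjusted p = 0.215 in limma). Its relative NPR4 lay on the other side, with 157.2 and 141.4 in OE and 202.9 and 183.9 in ZH11 (-0.34, adjusted p = 0.162 in limma). The groups did not overlap for either. They overlapped for NPR5 (-0.38), NPR3 (0.14), NH2 (-0.08), Cht10 (0.04) and Cht5 (0.77).

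Diterpenoid phytoalexin genes held a single call. Of 14 tested, 0 rose and 1 fell, with a median of 0.07; a gene of carbamoyl phosphate synthesis also entered this list through its symbol. The gene that fell was CYP76M7, a cytochrome P450 of phytocassane synthesis. It had 358.9 and 370.8 in OE, against 741.3 and 828.2 in ZH11 (-1.07 ± 0.11, limma adjusted p = 0.00107), with no overlap and lines that nearly coincide. Of 23 tested P450 genes, 0 rose and 2 fell, the other being AOS2.

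Among ethylene genes, EIL1B, a member of the EIN3-like transcription factors that turn on ethylene responses, rose alone. It had 1179.4 in OE-24 and 919.5 in OE-29, against 419.0 and 391.6 in ZH11 (1.33 ± 0.11, limma adjusted p = 0.000228). OE-24 was the higher line, and the groups did not overlap. The paralogue EIL1A was brighter and had 5470.5 and 5053.0 in OE and 5279.6 and 5367.5 in ZH11 (-0.02, adjusted p = 0.979 in limma). Of the 18 tested genes in this list, which holds DREB genes through their ERF numbers, 1 rose and 0 fell, with a median of 0.03.

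Jasmonate and auxin genes were called singly. AOS2, an allene oxide synthase of jasmonate synthesis, had 145.2 and 168.9 in OE and 268.5 and 220.9 in ZH11 (-0.59 ± 0.12, limma adjusted p = 0.0458). It was the only call among 30 tested jasmonate genes, a list that also took in GATA factors through TIFY synonyms. GH3-8, an enzyme that conjugates auxin to amino acids, had 69.8 in OE-24 and 108.5 in OE-29, against 42.4 and 37.9 in ZH11 (0.88 ± 0.16, limma adjusted p = 0.0283). SAUR39, an auxin-responsive gene, had 575.4 and 467.2 in OE and 954.7 and 890.5 in ZH11 (-0.81 ± 0.11, limma adjusted p = 0.00756).

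The 52 tested genes of the auxin list held 1 rise and 1 fall, with a median of -0.07. Both lines lay below both ZH11 arrays for 22 of them and above for 4, where the shares over all genes were 18.1% and 18.5%. The list was matched by symbol and took in JAR1 and a gene listed only as ARF, whose place in it was not checked. Of 6 tested NAC transcription factor genes, 0 rose and 1 fell, and all 6 had a negative change, with a median of -0.20. The one called, NAC45, had 66.9 and 75.8 in OE and 145.4 and 104.4 in ZH11 (-0.68 ± 0.13, limma adjusted p = 0.0406). No WRKY gene was called among 6 tested.

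Transport genes differed at a few members. AMT3-3, of a family of ammonium transporters, had 1136.6 and 1336.6 in OE and 651.3 and 703.5 in ZH11 (0.85 ± 0.15, limma adjusted p = 0.0283). It was the only call among 8 tested ammonium and nitrate transport genes, and 8 of the 8 had a positive change, 7 after median centring. ZIP8, a zinc transporter, had 453.0 in OE-24 and 657.4 in OE-29, against 288.5 and 300.3 in ZH11 (0.86 ± 0.17, limma adjusted p = 0.0407).

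Metallothioneins bind metals through cysteines. MT-1-4b had 36.4 and 32.5 in OE and 131.9 and 250.5 in ZH11 (-1.98 ± 0.27, limma adjusted p = 0.00609). The ZH11 arrays differed more from each other than the OE lines did, but the groups did not overlap. MT1B was not called, with 709.0 in OE-24 and 1855.7 in OE-29, against 2742.5 and 2974.9 in ZH11 (-1.30, adjusted p = 0.118 in limma). Of 32 tested metal transport and binding genes, 1 rose and 1 fell.

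Enzymes of anthranilate synthesis, the entry to tryptophan, were looked at after values were seen. Of 4 tested genes, 2 rose and 0 fell. ASB1, a beta subunit of anthranilate synthase, had 1511.5 and 1921.8 in OE and 1120.4 and 1119.8 in ZH11 (0.60 ± 0.10, limma adjusted p = 0.0173). ASA2, an alpha subunit, had 270.7 and 331.3 in OE and 200.2 and 200.7 in ZH11 (0.54 ± 0.11, limma adjusted p = 0.046). In both genes OE-29 was the higher line.

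Further named rises covered signalling and stress genes. They included PP2C59, a protein phosphatase (0.80), ERG1, an elicitor-responsive protein (0.67), Lpa1, a low phytic acid gene (0.61), HSF6, a heat shock factor (0.61), and AGO18, an Argonaute protein (0.61). PSK4, a precursor of the peptide hormone phytosulfokine, had 4299.7 and 3781.2 in OE and 2592.7 and 2800.4 in ZH11 (0.58 ± 0.07, limma adjusted p = 0.00399). For AGO18 and PSK4 the higher line was OE-24. The cystatin gene OC-VIII (0.58), the cell wall invertase gene CIN1 (0.57), the ascorbate peroxidase gene APX7 (0.49), the alternative oxidase gene AOX1a (0.47), the arginine decarboxylase gene ADC1 (0.44) and the HD-Zip gene HOX15 (0.41) were higher too, as were SAPK2, a SnRK2 protein kinase (0.29), and the gene listed as GAP1 (0.38). Outside the rule for named genes, and chosen after their values were seen, were PP2C59, PSK4, OC-VIII, CIN1, APX7, AOX1a, ADC1, HOX15, SAPK2 and GAP1, and likewise ASA2.

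Both SCAMP4 and PDIL1-1 were picked after their values were seen, and stand for no list. SCAMP4, a secretory carrier membrane protein, had 2097.4 and 2199.2 in OE and 1723.6 and 1713.2 in ZH11 (0.32 ± 0.06, limma adjusted p = 0.0343). PDIL1-1, a protein disulfide isomerase of the endoplasmic reticulum, had 4349.3 and 4504.7 in OE and 3367.3 and 3485.6 in ZH11 (0.37 ± 0.06, limma adjusted p = 0.0147). Both are small changes in bright genes, without overlap. The vesicle and Golgi list held only 3 tested genes, and none was called.

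Of 52 tested cell wall genes, 1 rose and 0 fell on the brightest probe set, with a median of -0.11. The one called was UAM1, a UDP-arabinopyranose mutase that supplies arabinose for wall polysaccharides, with 3936.7 and 4439.6 in OE and 3135.6 and 3233.6 in ZH11 (0.39 ± 0.07, limma adjusted p = 0.0229). UAM3 was called lower on a dimmer probe set only, with 80.6 and 94.4 in OE and 145.8 and 154.8 in ZH11 (-0.69, limma adjusted p = 0.0315). Its brighter probe set gave -0.23 and was not called. Both lines lay below both ZH11 arrays for 19 of the 52 and above for 1, against 18.1% and 18.5% of all genes. BURP16 had unlike signals in the lines, at 8.0 in OE-24 and 108.1 in OE-29, against 12.5 and 14.0 in ZH11. It was not called between OE and ZH11 (adjusted p = 0.921 in limma), nor between the lines.

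Ribosomal protein genes had small differences, mostly of one sign. Of 25 tested, 0 were called by limma and 7 had an unadjusted p under 0.05, against 11.9% of all genes, with a median change of 0.10 and a positive sign in 23, or in 22 after either other scaling. Both lines lay above both ZH11 arrays for 13 of the 25 and below for 0, against 18.5% and 18.1% of all genes. No gene was called among 3 chlorophyll-binding protein genes or 23 glutathione and redox genes.

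**Figure D4:**
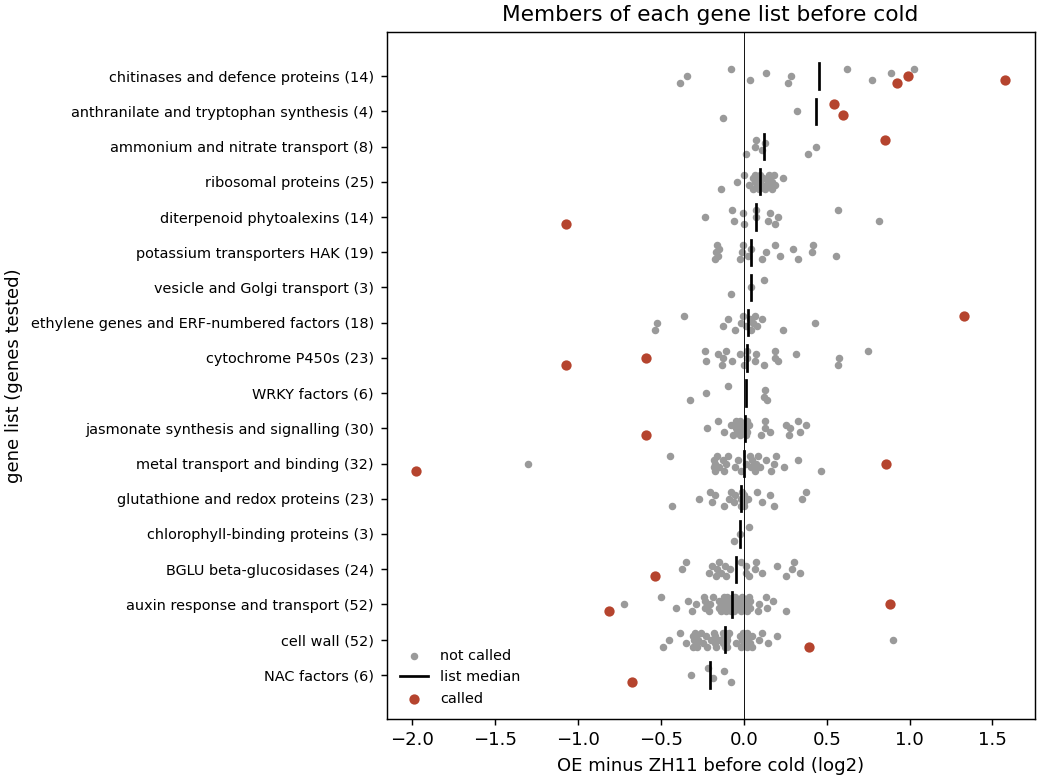
Change before cold (OE minus ZH11, log2, horizontal axis) of each tested member of 18 gene lists, with called members in red, others in grey and a black bar at the list median. Chitinases and defence proteins have the highest median, 0.45, and NAC factors the lowest, -0.20.

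Falls among other genes were led by LOC4335518, with 418.1 in OE-24 and 624.0 in OE-29, against 1887.5 and 1786.9 in ZH11 (-1.81 ± 0.15, limma adjusted p = 0.000239). The gene listed as MS had 82.4 and 178.0 in OE and 437.4 and 358.4 in ZH11 (-1.58 ± 0.25, limma adjusted p = 0.0154). In both, OE-24 was the lower line. LOC4332506 (-1.34), LOC4333427 (-1.15), LOC4327002 (-1.12) and LOC4344255 (-1.09) were lower without overlap. LOC4333427 lost its call in 7 of 19 alternatives, among them the fits without either ZH11 normal or either ZH11 cold array (adjusted p up to 0.209 in limma), while the other three kept theirs in all 19. Also lower without overlap were the probe sets Os.18814.1.S1_at (-1.70) and Os.17356.1.A1_a_at (-1.31), which have no gene listed. BGLU22, a beta-glucosidase, was lower by a change of -0.54, and the genes listed as SK3 and AO-2 by -0.41 and -0.37. LOC4346183 (-1.75) lay below the signal condition and was chosen after its values were seen.

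Probe sets of a gene did not always give the same answer. Of 35 called genes with more than 1 tested probe set, 31 had the same sign on all of them. The dimmer probe sets of HSF6 (0.07), ADC1 (0.135), GAP1 (0.33), AGO18 (-0.06) and LOC4346183 (-0.33) were not called. Those of Cht2, LOC4331398 and LOC9268613, given above, were. Another 12 genes were called only on a dimmer probe set, and 6 of them have a name. Besides HAK5 and SGR, these were GLP2 (-0.88), UAM3 (-0.69), GBSS1 (-0.63) and HAK17 (0.55). For the potassium transporter gene HAK5 the dimmer probe set had 739.2 and 845.0 in OE and 330.6 and 268.7 in ZH11 (1.36 ± 0.12, limma adjusted p = 0.000269). Its brighter probe set had 7517.3 and 7069.0 in OE and 7092.8 and 7049.8 in ZH11 (0.04, adjusted p = 0.935 in limma). SGR, which promotes chlorophyll breakdown, had 227.6 and 347.8 in OE and 530.4 and 515.6 in ZH11 on its dimmer probe set (-0.86, limma adjusted p = 0.0408). Its brighter probe set had a change of -0.52 that did not pass (adjusted p = 0.38 in limma). There the lines differed in size, with -0.93 in OE-24 and -0.11 in OE-29. The signals were 685.8 in OE-24 and 1221.7 in OE-29, against 1353.7 and 1282.0 in ZH11.

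A few called genes were neighbours. Of 8124 pairs of adjacent genes with both tested, 6 had both called, 5 with both higher and 1 with both lower. Over all genes tested, 1.5% were called, and whether 6 pairs exceed what that share would give was not tested. The pair of LOC4340413 and LOC4340414 had changes of 1.46 and 0.87, and that of LOC4345561 and LOC4345562 had 0.88 and 1.68.

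The cold arrays gave the same measure in the same lines, on levels that the difference before cold did not contain. They are not independent of the calls before cold, since the 8 arrays shared the filter and the estimate of the spread. Of the 265 probe sets called higher before cold, 172 (64.9%) were called higher after cold, against 8.13% of all tested probe sets, while 4 were called lower and 89 were not called. Of the 143 called lower, 66 (46.2%) were called lower after cold, against 4.95% of all tested, while 4 were called higher and 73 were not called. Both OE cold arrays lay above both ZH11 cold arrays for 234 of the rises (88.3%), against 33.5% of all tested, and below them for 109 of the falls (76.2%), against 28.1%. The probe sets were selected on their change before cold, which makes the medians there, 0.81 and -0.69, large by selection; after cold they were 0.57 and -0.34.

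LOC4331398 was again bright in OE alone, with 1181.5 and 1838.2 in OE cold and 5.2 and 6.2 in ZH11 cold (6.10 ± 0.23, limma adjusted p = 2.65e-06). Cht2, Cht11 and Cht6 remained higher after cold, by 1.11, 0.89 and 1.33 (limma adjusted p = 0.00107, 5.35e-05 and 0.00026). The difference between the effects after and before cold was called for 32 of the rises, 27 of them smaller after cold, and for 15 of the falls, 14 of them smaller, where 1.14% of all tested were called, 0.731% with a positive difference and 0.405% with a negative one. These probe sets were selected for a large change before cold, which favours a smaller one after it, so nothing is read from the counts of smaller effects. EIL1B was among them: it had 4176.7 and 3686.4 in OE cold and 4752.7 and 4949.0 in ZH11 cold (-0.30, adjusted p = 0.0923 in limma).

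**Figure D5:**
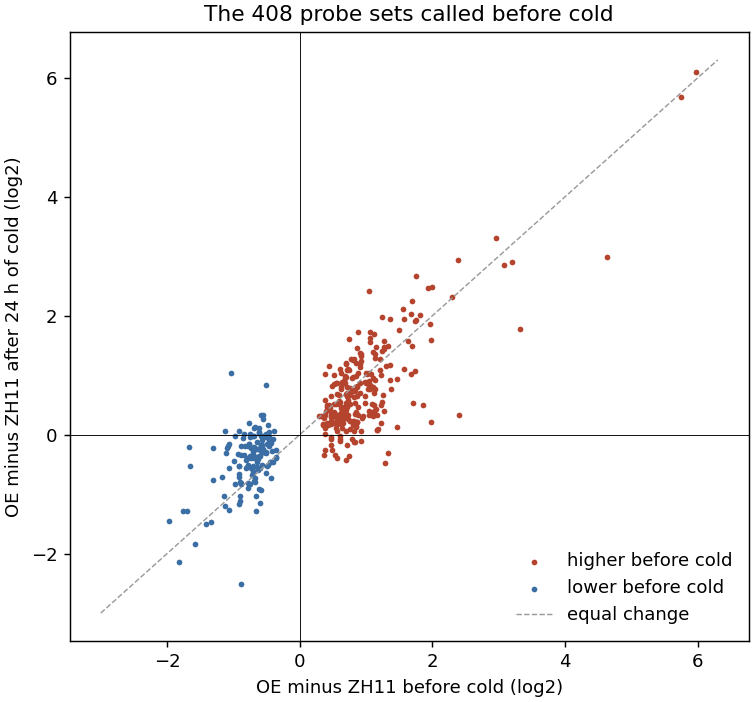
Change after 24 h of cold (OE minus ZH11, log2, vertical axis) against change before cold (horizontal axis) for the 408 probe sets called before cold, in red where higher and blue where lower, with a dashed line at equal change. Most rises stay above 0, with a median after cold of 0.57, and the falls have a median of -0.34.

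Many of the smaller named calls depended on the arrays and the variance model. Of the 35 named genes, 23 lost their call when the 4 normal arrays were fitted alone, 18 without the variance trend and 8 with the replicate number as a block. By single arrays, 27 lost their call without OE-29 normal and 2, AOS2 and NAC45, without OE-24 normal. Leaving out the first ZH11 normal array ended 29 calls, and leaving out the second ended 26. The number was 19 without either ZH11 cold array and 8 without either OE cold array. Over these fits the adjusted p of lost calls ran up to 0.359. Cht2, EIL1B, Cht11, PSK4 and CYP76M7 were called in all 8 fits that left out 1 array, and MT-1-4b in 7 of 8, the exception being the fit without OE-29 normal.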

How the data were processed

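Probe-set signals of 8 one-colour Affymetrix rice arrays were taken from the deposited table, where, per the labels, cRNA had been labelled with biotin. The authors deposited intensity values on a linear scale; how they were summarised and normalized is not given in the sources used here. The platform annotation listed 1 gene for 22436 of 57194 probe sets, several for 95 and none for 34663; names came from it and from RefSeq assembly ASM3414082v1. The brightest tested probe set stood for a gene, and related genes may cross-hybridise. No array was left out, and 0 per-array columns were unused.

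A group-means model over all 8 arrays was fitted to log2(value + 16) with limma 3.58.1 in R 4.3.3 (eBayes with a trend, 4 residual degrees of freedom), two-sided, with Benjamini-Hochberg adjustment over 34316 probe sets. The lines were separated in a second fit with 3 residual degrees of freedom. The procedure was tested on simulated data. Named genes were the 12 largest rises and falls among genes with a name, and the 5 largest among locus numbers, that were called, without overlap and above the median signal; called list members; and the 2 largest probe sets without a gene each way. The members, lists and rules were chosen with earlier results of these data known, and 3 lists and further genes were added after values were seen. From the tissue markers, 3 genes matched only by a shared synonym were removed after values were seen. Alternatives changed the scaling, constant, filter, variance model, block and arrays.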

Additional observations from a re-analysis of the deposited data

Results flagged for a closer look

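Among the genes and probe sets named before cold, 6 had an effect of overexpression that differed between the arrays after and before cold in limma's test of that difference. In LOC4340325 the effect was smaller after cold by a difference of -1.64 (adjusted p = 0.00416), with 208.4 and 211.8 in OE cold and 9.0 and 16.4 in ZH11 cold. For EIL1B the difference was -1.63 (adjusted p = 0.00154 in limma), and the OE cold arrays lay below the ZH11 cold arrays. Os.32889.1.S1_at differed by -1.56 (adjusted p = 0.00867 in limma). It was bright in all cold arrays, at 5332.9 and 6092.9 in OE and 1699.8 and 1626.3 in ZH11. A called probe set with a nearly identical identifier, listed for LOC4342289, was also higher in OE at both times, but by value its effect was larger after cold. Its change was 1.04 before cold and 2.41 after cold. LOC4350282 had a larger effect after cold, by 0.92 (adjusted p = 0.0198 in limma). CYP76M7 and LOC4344255, lower in OE before cold, had differences of 0.91 and 0.89 (adjusted p = 0.0251 and 0.0198 in limma). CYP76M7 had dimmed to 63.8 and 51.2 in OE cold and 66.8 and 64.7 in ZH11 cold. All 6 were chosen for their change before cold, which favours a smaller one after it. The causes were not tested.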

How the results depend on the processing

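The 408 calls became 226 with the 4 normal arrays only, and ran from 151 to 846 when 1 array was left out. OE-24 alone had 201 calls, 105 to 330 with 1 array left out. OE-29 alone had 843, 537 without the variance trend and 372 to 1236 with 1 array left out. The 11668 probe sets with both lines beyond ZH11 were 18447 with no filter, which tests more probe sets. The 238 calls made the same way after cold ran from 147 to 265 with 1 array left out. Other alternatives kept these counts within 1.5 times. With the replicate number as a block, 393 probe sets were called. The numbers mark the same line before and after cold in OE, where the replicate differences had a correlation of 0.121 across probe sets, and independent replicates in ZH11. Between OE and ZH11 before cold they pair no arrays by design, and the correlation was -0.12. Of 1005 values of the 53 named genes and probe sets under alternatives, 797 kept their direction and call, 208 kept the direction without passing, and 0 turned. In every alternative run for them, 21 were called. With 1 array per line, differences between lines of a size near the spread were not detectable, and larger ones also went without a call. Examples, as OE-24 minus OE-29, were -0.98 for MS and -0.82 for the brighter probe set of SGR.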
